A study of Mus musculus with 9 samples.

Results

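Oxidative phosphorylation genes encoded in the nucleus were followed through 3 stages of mouse satellite cells, the stem cells of skeletal muscle. The genes were taken by name from the 45706 genes of the deposited table: protein-coding genes whose symbol begins with Nduf, Uqcr, Cox4 to Cox8 or Atp5, or is Sdha, Sdhb, Sdhc or Sdhd. The rule took 92 genes. Of these, 83 encode structural subunits: 7 core and 29 accessory subunits of complex I, 4 of complex II, 8 of complex III, 20 of complex IV (with Ndufa4 and Ndufa4l2 counted there) and 15 of ATP synthase. The other 9 are 7 complex I assembly factors (Ndufaf genes) and 2 genes with an ATP synthase name, Atp5s and Atp5sl. Cyc1, a complex III subunit, does not carry such a name and is given with the other genes of the pathway.

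Cells came from C57Bl6 mice aged 12 to 20 weeks, with 3 independent samples from different animals at each stage. They were freshly isolated, grown in 20% fetal calf serum with 2.5 ng/ml FGF-2 for at least 3 days (proliferating), or grown and then switched to 2% horse serum for 6 days (myotubes, whose stage the labels call differentiating). No genetic change or drug was given in the labels for any stage. RNA was sequenced as total RNA after removal of ribosomal RNA. The media of proliferating cells and of myotubes differ, so stage and medium cannot be told apart.

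Oxidative phosphorylation makes ATP in the inner mitochondrial membrane. Complexes I and II pass electrons from NADH and succinate to ubiquinone, complex III hands them to cytochrome c, and complex IV, cytochrome c oxidase, gives them to oxygen. Complexes I, III and IV pump protons, and ATP synthase uses their return flow. Complexes I, III, IV and ATP synthase also hold subunits encoded by mitochondrial DNA, whereas complex II is wholly nuclear. Several small subunits of complex IV exist as a common form and as a form of heart and skeletal muscle: Cox6a2 for Cox6a1, Cox7a1 for Cox7a2 and Cox8b for Cox8a. Quiescent satellite cells are known for few mitochondria, and adult muscle fibres for many.

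Values are normalized read counts: counts per gene that the authors scaled between libraries and rounded. Libraries summed to 17.8 to 26.2 M of these units. From the spacing of low values 1 read was worth 0.748 to 2.18 units, and freshly isolated replicate 1 was the shallowest library, with an estimated 12.0 M reads against 19.3 to 24.3 M in the others. The non-coding gene Gm26917 held 22.2% of its total and 2.88% to 11.2% of the others. Most stage markers followed the labels. Pax7, the satellite cell factor, lay at 11694 to 15700, 2556 to 3330 and 1192 to 1645 in freshly isolated cells, proliferating cells and myotubes. Myh3, embryonic myosin, lay at 23 to 83, 3055 to 23038 and 296158 to 335321. Myod1 lay at 4938 to 6876, 20690 to 21446 and 6858 to 7315, Myog at 62 to 1257, 2179 to 9530 and 33789 to 39734. Ckm lay at 24 to 73, 14 to 94 and 2892 to 4579. Mki67, a marker of dividing cells, lay at 66 to 471, 22495 to 25457 and 7550 to 13203. It thus stayed high in myotubes, where its fall was -1.3 (limma, adjusted p = 0.0672). The part of dividing cells in myotube libraries was not tested. Each of the 13 subunit genes of the mitochondrial genome had a listed value of 0 throughout, so the subunits encoded there were not compared. Log2 changes are on the log2(value + 1) scale, ± SE, with adjusted p from limma over the 17291 genes that reached 10 in 3 or more libraries. A gene was called at an adjusted p below 0.05. Means are ± SD, n = 3. Exons of 32 of the 92 genes overlap those of another gene, and reads of such genes may be shared; besides those stated below, these include Ndufs1, Ndufs3, Ndufa3, Ndufa13, Atp5d, Atp5o, Uqcrb and Cox4i1.

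The oxidative phosphorylation genes were low in freshly isolated cells, higher in proliferating cells and higher again in myotubes. Summed over the 92 genes they made up 0.21%, 0.232% and 0.259% of the freshly isolated libraries, 0.733%, 0.825% and 0.784% of the proliferating and 1.778%, 1.514% and 1.863% of the myotube libraries. With Gm26917 left out of the totals, the shares were 0.27%, 0.259% and 0.291%, then 0.824%, 0.902% and 0.877%, then 1.836%, 1.567% and 1.918%. The median gene of those tested lay at 233 to 238, 616 to 748 and 1859 to 2705. Of the 92 genes 89 passed the filter. Cox7b2 and Cox8c, isoforms known from testis, were 0 in all libraries, and Cox4i2 did not reach 10 in 3 libraries. In bulk RNA, fewer cells of a type and less RNA per cell cannot be told apart.

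**Figure D1:**
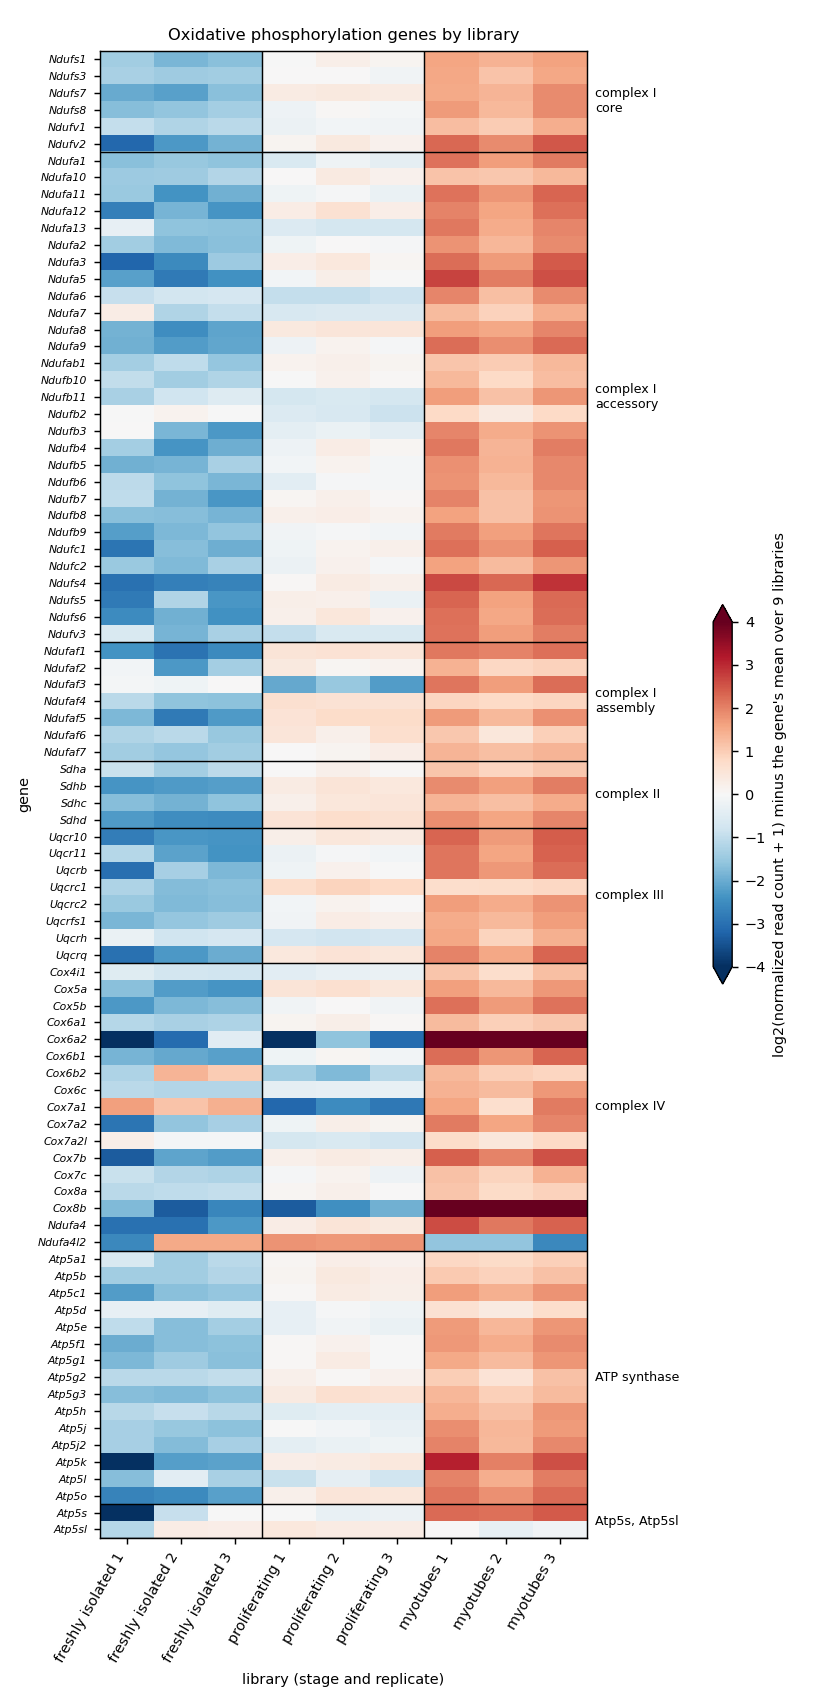
Of the 89 tested genes, 88 (rows, by complex) in the 9 libraries (columns); colour is log2(normalized read count + 1) minus the gene's mean over all libraries, in log2 units. Most rows pass from blue in freshly isolated to red in myotube libraries. Cox7a1, Cox6b2, Ndufaf3, Ndufa4l2, Atp5sl, Ndufb2 and Cox7a2l are among those that do not, and myotubes replicate 2 is paler than its neighbours.

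In proliferating against freshly isolated cells 70 of the 89 genes were higher and 5 lower, where 37.6% of all tested genes were higher and 35.7% lower. Their median log2 change was 1.67 (3.17-fold), against 0.07 for all tested genes. In myotubes against proliferating cells 82 were higher and 1 lower, against 28.6% and 25.5% of all genes, with a median of 1.69 against 0.04. In myotubes against freshly isolated cells 85 were higher and 0 lower, against 40.2% and 37.3% of all genes, with a median of 3.18 (9.03-fold) against 0.10. The 4 not called there were Atp5sl, Cox6b2, Cox7a1 and Ndufa4l2. The 3 comparisons share their groups and are given side by side only.

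Among the other protein-coding genes tested, shorter ones had larger median changes than longer ones, and most oxidative phosphorylation genes are short. Their median merged exon length was 1.72 kb, against 4.48 kb in the 13716 other protein-coding genes tested. In the other genes, the median change from freshly isolated to proliferating cells was 0.53 at up to 1 kb, 0.43 at 1 to 2 kb, 0.38 at 2 to 4 kb and 0.1 above 4 kb. For the oxidative phosphorylation genes of the same classes (20, 35, 23 and 11 genes) it was 1.51, 1.73, 1.57 and 1.67. From proliferating cells to myotubes the other genes had 0.51, 0.47, 0.19 and -0.07, and the oxidative phosphorylation genes 2.02, 1.72, 1.43 and 1.4. In each class the oxidative phosphorylation genes had the larger median. The part of length in these changes was not tested.

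**Figure D2:**
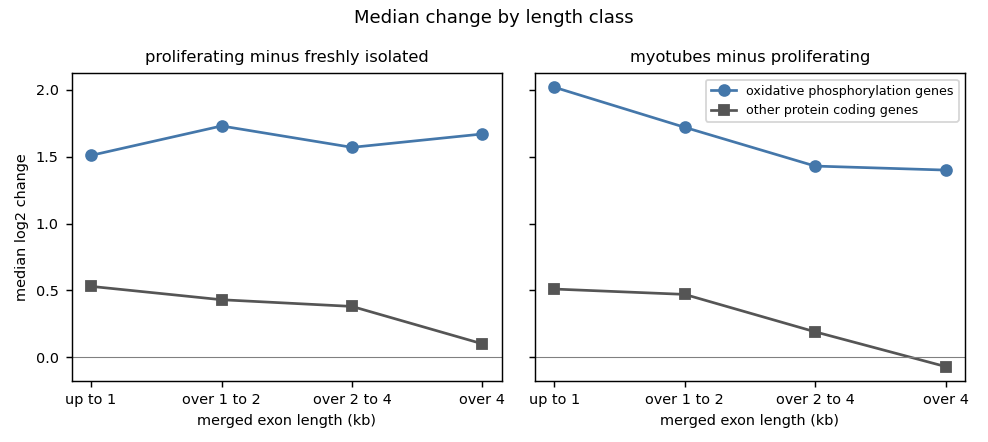
Median log2 change (y axis) of oxidative phosphorylation genes (circles) and of other protein-coding genes (squares) in 4 classes of merged exon length in kb (x axis), for proliferating minus freshly isolated cells (left) and myotubes minus proliferating cells (right). The circles lie between 1.4 and 2.02, above the squares, which fall from 0.53 to 0.1 and from 0.51 to -0.07.

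The complexes followed this course in different proportions. Complex II had a median log2 change of 2.4 on entry into culture and 1.07 from proliferating cells to myotubes. Complex III had 1.9 and 1.73, core complex I 1.46 and 1.43, accessory complex I 1.67 and 1.86, ATP synthase 1.36 and 1.64, and complex IV 1.12 and 1.81. Without its muscle and other tissue-restricted isoforms complex IV had 1.6 and 1.57. The assembly factors of complex I had 1.73 and 0.93. Differences between complexes were not tested.

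**Figure D3:**
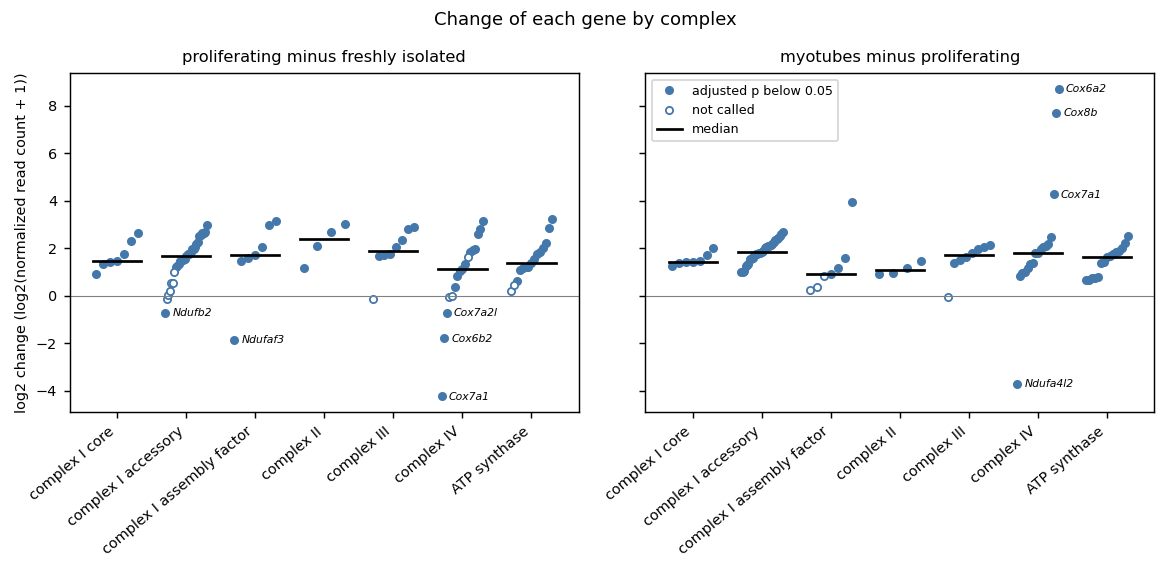
Log2 change (y axis) of each tested gene by complex (x axis) for proliferating minus freshly isolated cells (left) and myotubes minus proliferating cells (right); filled points have an adjusted p below 0.05, open points do not, and bars are medians. Points below 0 are few, and Cox6a2 (8.73), Cox8b (7.72) and Cox7a1 (4.28) stand above the rest on the right.

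Complex I takes electrons from NADH. All 7 of its core subunits rose in both neighbouring comparisons. Ndufv2, an iron-sulfur subunit of the NADH-binding arm (GRCm38 chromosome 17, 66078638 to 66101559), read 183, 336 and 440 in freshly isolated, 1775, 2128 and 1828 in proliferating and 7993, 6139 and 9252 in myotube libraries. The 3 stages did not overlap. It rose by 2.66 ± 0.27 (adjusted p = 9.88e-06) and then by 2.01 ± 0.27 (adjusted p = 0.00015). Ndufs8 and Ndufs3 had the next largest rises from proliferating cells to myotubes, 3.28-fold and 2.72-fold. Ndufs7, a subunit of the arm that meets ubiquinone, rose 4.93-fold and then 2.35-fold, and Ndufs1, the largest iron-sulfur subunit, 3.34-fold and 2.69-fold.

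Of the 29 accessory subunits of complex I, 22 rose and 1 fell on entry into culture, and all 29 rose in myotubes against proliferating cells. Ndufs4, known for its place in late assembly of the enzyme (chromosome 13, 114287795 to 114388258), read 115, 137 and 143 in freshly isolated cells. It read 943, 1142 and 1053 in proliferating cells and 5749, 4472 and 6804 in myotubes, with no overlap. Its log2 changes were 2.98 ± 0.16 (adjusted p = 8.07e-08) and 2.42 ± 0.16 (adjusted p = 1.85e-06). Ndufa12 rose 6.5-fold and 2.89-fold, and Ndufa3 6.28-fold and 3.66-fold. Ndufa10, the accessory subunit with the highest mean, went from 885 ± 97.9 to 2553 ± 293 and 5064 ± 428.

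A few accessory subunits were called in myotubes but not on entry into culture. Ndufa6 (chromosome 15, 82350140 to 82354322) read 490, 558 and 573 in freshly isolated and 470, 475 and 515 in proliferating libraries, which overlap (-0.15 ± 0.18, adjusted p = 0.465). In myotubes it read 3552, 2134 and 3442, a rise of 2.61 ± 0.18 (adjusted p = 2.26e-06). Ndufv3 had log2 changes of 0.54 ± 0.27 (adjusted p = 0.0931) and 2.69 ± 0.27 (adjusted p = 1.87e-05), the largest rise of an accessory subunit in myotubes. Ndufa13 had 0.54 ± 0.31 and 2.5 ± 0.31. Freshly isolated replicate 1 stood above replicates 2 and 3 in both, at 462 against 197 and 287 for Ndufv3 and at 645 against 264 and 256 for Ndufa13. Without that library both were called higher in proliferating cells, at 0.86 and 0.98. Ndufa7, Ndufb3 and Ndufb11 were not called on entry into culture either.

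Ndufb2, a small subunit of the membrane arm, was the accessory subunit that fell. It read 237, 263 and 237 in freshly isolated, 164, 154 and 133 in proliferating and 414, 306 and 416 in myotube libraries, with no overlap. The log2 changes were -0.71 ± 0.16 (adjusted p = 0.00286) and 1.32 ± 0.16 (adjusted p = 8.17e-05). Its exons overlap those of Braf on the opposite strand, and the sources used here do not say whether counting used strand.

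Of the 7 assembly factors, 6 rose and 1 fell on entry into culture, and 4 rose in myotubes against proliferating cells. Ndufaf1 (chromosome 2, 119655446 to 119662827) read 39, 26 and 35, then 302, 310 and 291, then 911, 837 and 967, rising by 3.16 ± 0.17 (adjusted p = 9.71e-08) and 1.58 ± 0.17 (adjusted p = 3.15e-05). Ndufaf3 went the other way at first. It read 142, 135 and 152 in freshly isolated cells, 36, 52 and 31 in proliferating cells and 665, 485 and 721 in myotubes, with log2 changes of -1.86 ± 0.23 (adjusted p = 3.86e-05) and 3.95 ± 0.23 (adjusted p = 1.19e-06). The exons of Ndufaf3 overlap those of Impdh2 on the opposite strand. Ndufaf4, the assembly factor with the highest mean, rose 4.12-fold to 1382 ± 44.4 and was not called afterwards (0.23 ± 0.14, adjusted p = 0.179), except without freshly isolated replicate 1 or with only the 2 stages compared. Ndufaf5 rose 7.89-fold and then 1.9-fold, and Ndufaf7 2.97-fold and 2.27-fold.

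Complex II, succinate dehydrogenase, also belongs to the citric acid cycle. Its 4 subunits rose in both comparisons. Sdhb, the iron-sulfur subunit (chromosome 4, 140961203 to 140979193), read 285, 305 and 320, then 1845, 2082 and 1958, then 5474, 4630 and 6043. The stages did not overlap, and replicates of the first 2 stages lay close together. Sdhb rose by 2.69 ± 0.11 (adjusted p = 1.55e-08) and 1.45 ± 0.11 (adjusted p = 3.93e-06). Sdhd, a membrane anchor, changed by 3.04 ± 0.12 and 1.17 ± 0.12, and Sdhc, the other anchor, by 2.11 ± 0.12 and 0.97 ± 0.12. Sdha, the flavoprotein with the highest mean, had the smallest changes of the 4, at 1.18 ± 0.13 and 0.92 ± 0.13.

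Complex III passes electrons to cytochrome c. Of its 8 genes 7 rose on entry into culture and 7 rose in myotubes against proliferating cells, and the gene not called was Uqcrh in the first comparison and Uqcrc1 in the second. Uqcrc1, a core protein of the matrix side and the complex III gene with the highest mean (chromosome 9, 108936633 to 108949623), read 1102, 778 and 811, then 4227, 4833 and 4504, then 4245, 4311 and 4598. It rose by 2.35 ± 0.13 on entry into culture (adjusted p = 1.01e-07), and its proliferating and myotube libraries overlapped (-0.04 ± 0.13, adjusted p = 0.799). Uqcrh, the hinge protein that binds cytochrome c1 (chromosome 4, 116066965 to 116075071), read 1455, 1016 and 1088, then 1096, 1024 and 1108, then 5060, 3243 and 4636. It was not called at first (-0.12 ± 0.18, adjusted p = 0.541) and rose by 1.98 ± 0.18 afterwards (adjusted p = 9.51e-06). Uqcrq and Uqcr10, small subunits, rose 7.43-fold and 7.11-fold on entry into culture and 2.82-fold and 3.52-fold afterwards. Uqcr11 and Uqcrb rose 4.46-fold and 4.11-fold in the second comparison.

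ATP synthase joins a catalytic head to a membrane ring. Of its 15 genes, 13 rose on entry into culture and all 15 in myotubes against proliferating cells. Atp5b, the catalytic beta subunit and the gene with the highest mean, read 9249, 9225 and 10754 in freshly isolated, 26150, 31327 and 28895 in proliferating and 49608, 45964 and 54479 in myotube libraries. It rose by 1.56 ± 0.11 (adjusted p = 7.56e-07) and by 0.8 ± 0.11 (adjusted p = 0.000199). Under quantile normalization the second change of Atp5b was turned, at -0.07 with adjusted p = 0.627. Per kb of merged exon Atp5b had 2299, 6795 and 11805 normalized counts by stage. Atp5o, part of the stalk that holds the head, rose 7.18-fold and 3.24-fold, and Atp5g3, a gene of the membrane ring, 4.68-fold and 1.58-fold.

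Atp5k, the small subunit e of the membrane part (chromosome 5, 108433244 to 108434448), read 9, 43 and 45, then 247, 258 and 273, then 1754, 823 and 1213. The stages did not overlap, and freshly isolated replicate 1 and myotubes replicate 1 stood at the 2 ends. The log2 changes were 3.25 ± 0.52 (adjusted p = 0.00023) and 2.21 ± 0.52 (adjusted p = 0.00453), and without freshly isolated replicate 1 the first was 2.53. Atp5l and Atp5j2, the subunits g and f beside it, had log2 changes of 0.46 ± 0.33 (adjusted p = 0.226) and 1.19 ± 0.19 (adjusted p = 0.000218) at first, and then rose by 2.51 ± 0.33 and 2.02 ± 0.19. Atp5d, the delta subunit, was not called at first (0.21 ± 0.11, adjusted p = 0.107) and rose by 0.73 ± 0.11 in myotubes.

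The 2 genes that carry only the name were each called in neither neighbouring comparison. Atp5s, known as coupling factor B, read 0, 22 and 42, then 42, 34 and 36, then 208, 200 and 236. Its log2 changes were 1.94 and then 2.49, and its myotube libraries lay above all the others. From freshly isolated cells to myotubes the log2 change of Atp5s was 4.43, and it was called higher. Atp5sl read 83, 230 and 223, then 246, 231 and 226, then 188, 147 and 168. The log2 change of Atp5sl from freshly isolated cells to myotubes was 0.04 ± 0.34, and it was called lower in myotubes than in proliferating cells without freshly isolated replicate 1.

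Complex IV divided by isoform. Its 12 tested genes without a tissue-restricted role included 11 that rose and 1, Cox7a2l, that fell on entry into culture, and all 12 rose in myotubes against proliferating cells. Cox7b (chromosome X, 106015700 to 106022450) rose 6.98-fold and 4.18-fold, to 8069 ± 1531 in myotubes. Cox6b1, whose product faces cytochrome c, rose 3.86-fold and 4.54-fold. Cox4i1, the complex IV gene with the highest mean, read 2323, 1938 and 1870, then 2448, 2652 and 2691, then 7040, 5347 and 7432. Its first change was small (0.35 ± 0.13, adjusted p = 0.0351), lost its call when freshly isolated or proliferating replicate 2 or 3 was left out and under upper quartile scaling (adjusted p = 0.4), with no trend or with no filter, while the second was 1.33 ± 0.13 (adjusted p = 1.9e-05).

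Cox7a2l (chromosome 17, 83501918 to 83517330) read 1669, 1351 and 1327 in freshly isolated, 868, 924 and 832 in proliferating and 2345, 1948 and 2475 in myotube libraries. The stages did not overlap, and proliferating cells were lowest. The log2 changes were -0.72 ± 0.12 (adjusted p = 0.000359) and 1.36 ± 0.12 (adjusted p = 9.95e-06).

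The muscle isoform Cox7a1 was the one with a clear level in freshly isolated cells. It read 246, 176 and 215 there, 8, 13 and 10 in proliferating cells and 236, 127 and 334 in myotubes. Proliferating libraries lay far below both other stages, which overlapped. The log2 changes were -4.24 ± 0.35 (adjusted p = 1.95e-06) and 4.28 ± 0.35 (adjusted p = 6.09e-06), and myotubes against freshly isolated cells gave 0.04 ± 0.35 (adjusted p = 0.932). Its common partner Cox7a2 rose throughout, from 172 ± 83.6 to 622 ± 82.8 and 2194 ± 368. Merged exons measure 0.535 kb for Cox7a1 and 0.944 kb for Cox7a2, and shares per kb depend on these lengths. Per kb of merged exon, Cox7a1 made up 84.8%, 60.8% and 61.4% of the Cox7a1 and Cox7a2 sum in the freshly isolated libraries, 2.58%, 3.2% and 2.69% in the proliferating and 14.4%, 11.2% and 20.3% in the myotube libraries. Myotube and freshly isolated libraries overlapped in the level of Cox7a1 but not in its share, which was higher in all 3 freshly isolated libraries.

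Cox8b was at 17 or below before the myotube stage. It read 17, 5 and 9, then 5, 10 and 15, then 2351, 1426 and 2928. The first 2 stages overlapped (-0.01 ± 0.49, adjusted p = 0.986), and all myotube libraries lay far above them (7.72 ± 0.49, adjusted p = 1.63e-06). Cox8a, its common partner, went from 927 ± 39.6 to 2019 ± 135 and 3620 ± 423. Per kb, Cox8b was 1.89% ± 1.16 of the Cox8b and Cox8a sum in freshly isolated, 0.852% ± 0.456 in proliferating and 50.5% ± 7.51 in myotube libraries.

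Cox6a2 followed the same course. It read 0, 3 and 24, then 1, 10 and 3, then 2438, 1237 and 2229, with a log2 change of 8.73 ± 1.02 (adjusted p = 5.18e-05) from proliferating cells to myotubes. Outside myotubes it reached 10 in freshly isolated replicate 3 and proliferating replicate 2 only, so the myotube libraries carried it past the filter. Against values this low, the size of the change also depends on the 1 added before the log. The common partner Cox6a1 went from 190 ± 10.5 to 486 ± 30.3 and 959 ± 111. Per kb, Cox6a2 was 4.41% ± 6.23, 0.947% ± 0.902 and 66.9% ± 6.23 of the Cox6a2 and Cox6a1 sum. The value of 24 lay in freshly isolated replicate 3. That library also read 279 for the muscle oxygen carrier Mb (37 and 27 in replicates 1 and 2). It read 375 for the heart myosin Myh6 (0 and 29), and 73 for the muscle creatine kinase Ckm (24 and 27). Other adult fibre markers were mixed. Mylpf (57, 44 and 2 in replicates 1 to 3), Actn3 (2708, 2439 and 2178) and Tnnt3 (423, 450 and 405) were lowest in replicate 3. So were Myh4 (22, 47 and 19) and Myoz1 (7, 7 and 4). Myh2 (7, 14 and 26) and Eno3 (155, 285 and 304) were highest there, and Pvalb, Myh1 and Myh7 lay between. The 4 heart markers summed to 46 to 510 in freshly isolated libraries and 7 to 61 in the others, with Myl7 of the atrium at 0 to 1. The part of fibre or heart material in the Cox6a2 value was not tested. The exons of Cox6a2 overlap those of Itgad on the opposite strand.

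The log2 ratio of each isoform to its partner was compared over the 3 stages with an exact permutation test over all 1680 ways to assign the 9 libraries. Its statistic was the variance between stages over that within stages. The test is one-sided by construction, since p counts statistics at least as large, and can give no p below 0.00357. Of 5 pairs 4 were tested, and all 4 had an adjusted p of 0.0143 over the pairs. The mean log2 ratio of Cox7a1 to Cox7a2 was 0.44 ± 1.04 in freshly isolated cells, -5.8 ± 0.14 in proliferating cells and -3.33 ± 0.51 in myotubes (SD, exact p = 0.00357). The freshly isolated libraries had 1.64, -0.18 and -0.15, so Cox7a1 counts, not divided by length, exceeded those of Cox7a2 in replicate 1 only. For Cox8b to Cox8a the mean log2 ratio was -6.5 ± 0.83, -7.63 ± 0.74 and -0.75 ± 0.44 (exact p = 0.00714). For Cox6a2 to Cox6a1 it was -5.36 ± 2.36, -6.77 ± 1.18 and 0.98 ± 0.4 (exact p = 0.0143). The test says that the ratio differed among stages, not between which, and the ratios of the first 2 stages overlapped for Cox8b and Cox6a2. Cox7a1 had its highest mean ratio in freshly isolated cells, while Cox8b and Cox6a2 had theirs in myotubes.

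**Figure D4:**
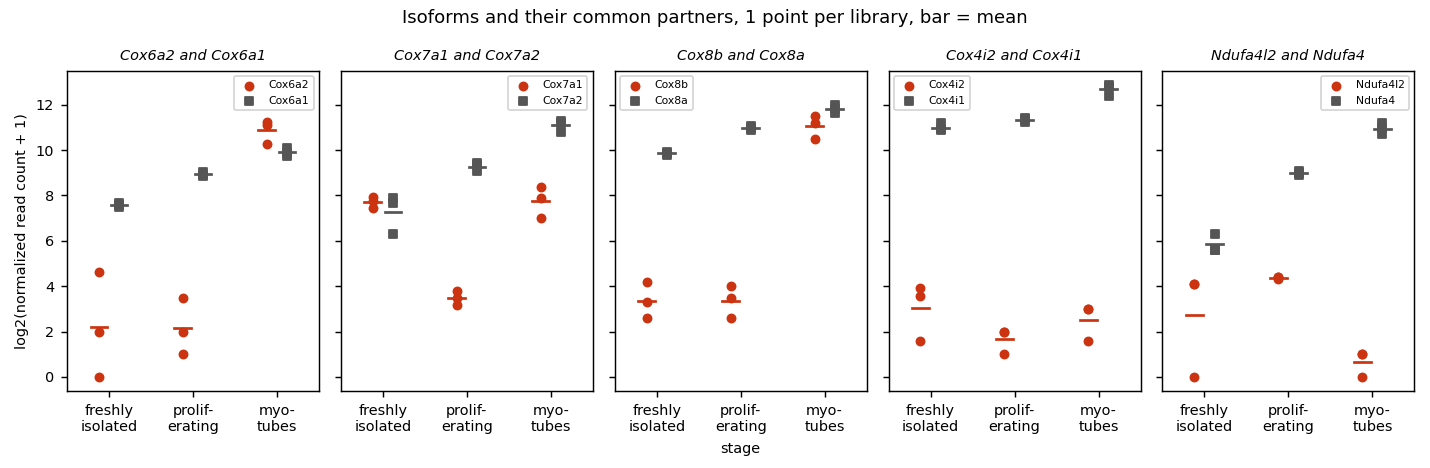
Log2(normalized read count + 1) (y axis) of 5 isoforms (red circles) and their common partners (grey squares) by stage (x axis), with 1 point per library and bars for the means. The grey partners climb from stage to stage; Cox6a2 and Cox8b are near 0 to 4.6 until myotubes, Cox7a1 dips in proliferating cells, and Ndufa4l2 drops in myotubes.

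The isoforms of other tissues stayed low. Ndufa4l2, known as a target of hypoxia signalling, read 0, 16 and 16, then 20, 19 and 20, then 1, 1 and 0. It was the single gene called lower in myotubes than in proliferating cells (-3.7 ± 0.96, adjusted p = 0.00795), and its exons overlap those of Shmt2 on the opposite strand. Its partner Ndufa4 rose by 3.14 ± 0.2 and 1.96 ± 0.2, from 58 ± 17.3 to 508 ± 36.8 and 1994 ± 334. The mean log2 ratio of Ndufa4l2 to Ndufa4 was -3.12 ± 2.19, -4.62 ± 0.14 and -10.28 ± 0.63 (exact p = 0.0143). Cox6b2, known from testis, read 9, 60 and 47, then 8, 6 and 10, then 57, 45 and 42. It was called lower in proliferating cells (-1.8 ± 0.61, adjusted p = 0.0215), where the libraries overlap, and the call was lost without freshly isolated replicate 2 (-1.31, adjusted p = 0.0831), without freshly isolated replicate 3, without proliferating replicate 2 and with only the 2 stages compared. Without freshly isolated replicate 1, it was -2.61. Cox4i2, the lung and hypoxia form, read 2, 14 and 11, then 3, 1 and 3, then 2, 7 and 7, which allows no comparison.

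All 3 muscle isoforms lie on mouse chromosome 7, which holds 10 of the genes, with Cox7a1 at 30184144 to 30186078, Cox6a2 at 128205435 to 128206387 and Cox8b at 140898945 to 140900446. Promoter sequences were read from RefSeq (GRCm38.p6), from 250 bases before to 50 bases after the annotated start. They are shown for the isoform Cox8b and its partner Cox8a, for Cox7a1, whose course differed, and for Atp5k, which holds 3 kinds of motif. Each is printed 5′ to 3′ on the gene's strand, and capitals mark the motifs found.
Cox8b (chr7:140900397-140900696, minus strand): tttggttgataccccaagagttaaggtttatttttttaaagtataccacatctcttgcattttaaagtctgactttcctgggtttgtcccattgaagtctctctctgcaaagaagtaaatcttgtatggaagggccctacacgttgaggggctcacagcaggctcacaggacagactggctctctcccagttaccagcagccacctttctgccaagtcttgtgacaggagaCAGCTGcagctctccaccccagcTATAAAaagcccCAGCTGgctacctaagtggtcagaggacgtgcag
Cox8a (chr19:7217567-7217866, minus strand): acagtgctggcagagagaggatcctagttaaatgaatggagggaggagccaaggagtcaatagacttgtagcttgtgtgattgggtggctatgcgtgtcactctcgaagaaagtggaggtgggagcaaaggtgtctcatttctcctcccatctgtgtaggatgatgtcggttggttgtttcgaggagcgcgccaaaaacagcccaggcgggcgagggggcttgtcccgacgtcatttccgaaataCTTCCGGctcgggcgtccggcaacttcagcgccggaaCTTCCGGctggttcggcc
Cox7a1 (chr7:30183921-30184220, plus strand): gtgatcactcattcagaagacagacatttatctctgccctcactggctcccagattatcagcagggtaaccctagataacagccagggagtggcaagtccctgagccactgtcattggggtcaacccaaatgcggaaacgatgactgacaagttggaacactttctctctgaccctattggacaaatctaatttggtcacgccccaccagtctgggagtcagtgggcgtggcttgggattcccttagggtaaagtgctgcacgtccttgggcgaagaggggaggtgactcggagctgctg
Atp5k (chr5:108434350-108434649, minus strand): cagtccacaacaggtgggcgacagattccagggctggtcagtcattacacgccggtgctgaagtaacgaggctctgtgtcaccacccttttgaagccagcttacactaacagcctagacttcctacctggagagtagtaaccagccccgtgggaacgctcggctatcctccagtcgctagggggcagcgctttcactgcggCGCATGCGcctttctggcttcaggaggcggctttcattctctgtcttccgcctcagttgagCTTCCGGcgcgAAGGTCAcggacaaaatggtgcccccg

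Motifs were searched on both strands. The core of NRF1 sites was spelled CGCATGCG. Ets factors such as GABP were searched for as CCGGAAG. The half-site of ERR receptors, which are partners of the coactivator PGC-1 alpha, was AAGGTCA. The YY1 motif was AAGATGGC. The E-box bound by myogenic factors was taken as CAGCTG. The TATA box was TATAAA, and the MEF2 consensus was searched by its usual degenerate form. A match to the MEF2 consensus can contain the TATA box letters, and none of the other motifs contains another. Cox8b held 2 E-boxes, beginning 19 bases before and 17 bases after the start, and a TATA box 5 bases after it. Cox8a held 2 Ets motifs, at 5 bases before and 33 after the start. Cox7a1 held none of the set in this window. Atp5k held an NRF1 motif 49 bases before the start, an Ets motif 13 after and an ERR half-site 24 after.

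RefSeq promoters were found for 76 of the 92 genes, 82 promoters in all. The muscle isoform Cox6a2 had none, so its promoter was not searched. The NRF1 motif was in 13.4% of these and in 1.87% of all 32851 promoters of the same length. The YY1 motif was in 14.6% against 2.75%, the Ets motif in 20.7% against 8.86% and the ERR half-site in 9.76% against 4.72%. The E-box was in 7.32% against 16.3%, the TATA box in 9.76% against 13.6% and the MEF2 consensus in 0 of the 82 against 3.19%. These shares were not tested and describe letters only, and promoters differ in base composition, which was not taken into account.

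Most assembly genes outside the name rule were also higher in culture. Of 44 tested assembly genes and cytochrome c genes outside the name rule, 36 rose and 4 fell on entry into culture, where 37.6% of all tested genes were higher and 35.7% lower. In myotubes against proliferating cells 27 were higher and 2 lower, against 28.6% and 25.5% of all genes. Uqcc2, a complex III assembly factor, rose by 3.52 and 1.99, from 89, 93 and 110 to 1102, 1111 and 1151 and then 4608, 3498 and 5507. Sdhaf4, which serves the flavoprotein of complex II, rose by 4.85 and 2.29, from 0, 2 and 7 to 70, 95 and 84 and then 458, 332 and 439. Without freshly isolated replicate 1 the first rise of Sdhaf4 was 4.09, and without replicate 3 it was 5.59. Timmdc1, a complex I assembly factor, rose by 1.95 and 1.02, while Ecsit and Tmem186, which serve the same complex, rose by 2.04 and 1.76 at first and were not called afterwards (-0.01, adjusted p = 0.965, and 0.22, adjusted p = 0.436). Sdhaf2, which helps attach the flavin of complex II, rose by 2.25 and 0.86. Atpif1, the inhibitor of ATP synthase, rose by 2.52. Its second change was 0.52 (adjusted p = 0.0454) and lost its call in 10 of 19 alternatives (adjusted p 0.00197 to 0.165 over all 19), among them without any 1 of the proliferating libraries and without myotubes replicate 1 or 3. Taco1, a translational activator of a complex IV subunit, rose by 3.51 and 1.47. Tmem70, an assembly factor of ATP synthase, rose by 2.93 and 0.95, and Cyc1, cytochrome c1, by 2.58 and 0.55. Cycs, cytochrome c, rose by 2.24 and 1.07. Cox10, an enzyme of the heme of complex IV, rose by 3.24. Its second change was -0.67 (adjusted p = 0.0497) and lost its call in 12 of 19 alternatives (adjusted p 0.000193 to 0.121 over all 19), among them without any 1 of the proliferating or myotube libraries and without freshly isolated replicate 2.

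Genes that keep and transcribe mitochondrial DNA were mixed. Of 14 tested, 9 were higher and 2 lower on entry into culture, against 37.6% and 35.7% of all tested genes. In myotubes against proliferating cells 6 were higher and 3 lower, against 28.6% and 25.5%. Tfam, which packs mitochondrial DNA, rose by 1.18. Its second change was 0.49 (adjusted p = 0.0289) and lost its call in 6 of 19 alternatives (adjusted p 0.00149 to 0.0922 over all 19), among them without proliferating or myotubes replicate 1 or 3. Tefm, the elongation factor of mitochondrial transcription, read 0, 7 and 14, then 217, 269 and 227, then 556, 494 and 593. Tefm rose by 5.59 at first, or by 4.44 without freshly isolated replicate 1 and 6.39 without replicate 3. It was not called afterwards (1.2, adjusted p = 0.218), but was without freshly isolated replicate 1, with a pseudocount of 5 and with only the 2 stages compared. Tfb1m, a methyltransferase of mitochondrial ribosomal RNA, rose by 2.89, or by 2.11 without freshly isolated replicate 1. Its second change was 1.7 (adjusted p = 0.0273) and lost its call without any 1 of the proliferating or myotube libraries (adjusted p 7.43e-05 to 0.0827 over 19 alternatives). Polg2, an accessory subunit of the mitochondrial DNA polymerase, fell by 2.66 on entry into culture, from 680, 766 and 864 to 146, 115 and 105.

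The nuclear regulators of respiration did not move as a group. Of 15 tested, 6 rose and 7 fell on entry into culture, against 37.6% and 35.7% of all tested genes. Under upper quartile scaling these counts were 4 and 8, against 5610 higher and 6942 lower of all 17291 tested genes. In myotubes against proliferating cells 3 were higher and 7 lower, against 28.6% and 25.5%. Ppargc1a, the coactivator PGC-1 alpha, read 31, 41 and 29, then 163, 138 and 127, then 602, 615 and 698. It rose by 2.06 (adjusted p = 4.67e-06) and 2.16 (adjusted p = 9.56e-06), with no overlap between stages. Esrra, the receptor ERR alpha, read 98, 99 and 108, then 507, 417 and 510, then 399, 413 and 505. It rose by 2.22 at first, and the culture stages overlapped (-0.12, adjusted p = 0.506). Esrrg, ERR gamma, read 57, 103 and 57, then 14, 5 and 4, then 413, 306 and 593. It fell by 3.2 (adjusted p = 9.87e-05) and rose by 5.79 (adjusted p = 4.56e-06).

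The other regulators took several courses. Ppargc1b, PGC-1 beta, rose by 2.53 and then fell by 0.87. Nrf1, nuclear respiratory factor 1, rose by 0.54 (adjusted p = 0.00301, and 0.0548 under upper quartile scaling) and fell by 0.92 (adjusted p = 0.000162). Gabpa, the DNA-binding subunit of GABP, rose by 0.68 (adjusted p = 0.000956) and was not called afterwards (-0.3, adjusted p = 0.082), except without freshly isolated replicate 1, with only the 2 stages compared and under quantile normalization. Gabpa and the subunit gene Atp5j overlap with their exons on opposite strands. Esrrb was read at 0 to 20, 19 to 76 and 86 to 100 in the 3 stages. Its first change was 2.52 (adjusted p = 0.036) and lost its call in 12 of 19 alternatives (adjusted p 0.00347 to 0.167 over all 19). Without freshly isolated replicate 1, where Esrrb is at 0, the change was 1.26, and without replicate 3 it was 3.45. The call was also lost without proliferating replicate 1 or 2 or any 1 of the myotube libraries. Pprc1, a relative of PGC-1, fell by 1.28 and 2.08, and Yy1 fell by 1.14 and 0.70.

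**Figure D5:**
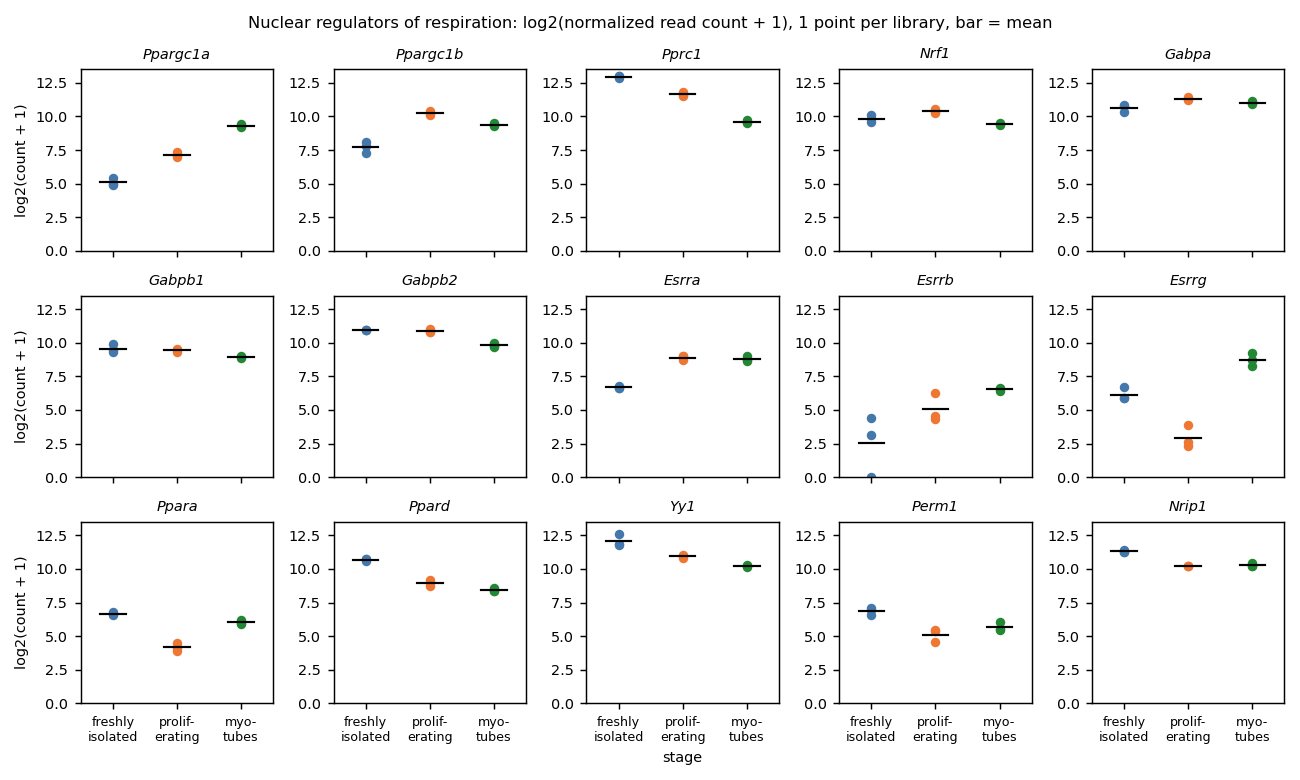
Log2(normalized read count + 1) (y axis) of the 15 nuclear regulators of respiration by stage (x axis), with 1 point per library and bars for the means. Ppargc1a climbs at each stage, Esrra levels off after the first step, Esrrg dips in proliferating cells, and Pprc1 and Yy1 are highest in freshly isolated cells.

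One myotube library stood apart in these genes. Myotubes replicate 2 was the lowest of its stage in 86 of the 89 tested genes, or 96.6%, while it was the lowest in 38.1% of all tested genes. The median log2 difference of this library from the mean of replicates 1 and 3 was -0.44 for the oxidative phosphorylation genes and -0.01 for other protein-coding genes. By length class it was -0.54, -0.47, -0.33 and -0.32 from the shortest to the longest oxidative phosphorylation genes, and -0.24, -0.19, -0.06 and 0.04 for the others. The same library was highest in Mki67, a marker of dividing cells (13203 against 9247 and 7550), highest in Pax7 (1645 against 1254 and 1192) and lowest in Ckm (2892 against 3891 and 4579). The part of unfused cells in this library was not tested. Among proliferating libraries, replicate 2 was the highest in 63 genes (70.8%, against 35.6% of all genes) and replicate 1 the lowest in 55 (61.8%, against 35.3%). Replicate 1 also had the lowest Myog, 2179 against 9530 and 8749.

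Markers of other cell types differed between lists. The 8 pericyte or smooth muscle markers summed to 2981 to 4231, 8666 to 20086 and 62657 to 63600 in the 3 stages, so this sum rose along with the oxidative phosphorylation genes. Most of it was Acta2, smooth muscle actin, at 1567 to 3144, 6866 to 18161 and 60374 to 61639. Of the same list Abcc9 lay at 442 to 640, 11 to 60 and 1420 to 1751 and Cspg4 at 371 to 414, 1625 to 2123 and 148 to 177, while Myh11 of smooth muscle was at 3 to 16 and Higd1b of pericytes at 0 to 11 in all libraries. The 6 endothelial markers summed to 105 to 227, 54 to 98 and 20 to 28 in the 3 stages, and the 6 erythroid markers to 15 to 23, 50 to 96 and 4 to 10, with the globin genes at 0 to 5. The 4 brown adipocyte markers summed to at most 19, with Ucp1 at 0 in all but 1 library. The 12 markers of adult fibres summed to 3395 to 3605 in freshly isolated, 13426 to 24229 in proliferating and 286212 to 403056 in myotube libraries. The 6 fibro-adipogenic markers summed to 7658 to 9203 in freshly isolated libraries and 23 to 506 in the others, almost all of it from Dpt and Col15a1, while Pdgfra, which defines those cells, stayed at 4 to 22 in all 9 libraries. The 6 leukocyte markers summed to 701 to 805 in freshly isolated, 58 to 80 in proliferating and 244 to 261 in myotube libraries, with Ptprc, which defines leukocytes, at 0 to 14. The sum in freshly isolated libraries was mostly Cd68, at 549 to 629, and Cd79a, at 150 to 165, and that in myotubes was mostly Itgam, at 213 to 229. The 4 male germ cell markers summed to 0 to 5, 2 to 6 and 13 to 21. Their part in the results was not tested.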

How the data were processed

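Per the labels' protocols, 100 ng of RNA per sample went through RiboGone and then the SMARTer Stranded Total RNA kit. STAR 2.4.0a served as aligner, mm10 (GRCm38) as genome and featureCounts 1.4.5-p1 as counter, per the submitters' processing notes. The score values deposited by the authors are gene counts scaled between libraries and rounded, and the tool of that scaling, the strand setting and the annotation release are not given in the sources used here. Since the values are not raw counts, no count model was used. Columns named with Q were assigned to freshly isolated cells by elimination.

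Genes that reached 10 in 3 or more libraries (17291) were put on the log2(value + 1) scale and fitted by limma, with its trend option, over all 9 libraries together, with Benjamini-Hochberg adjustment over all genes tested at 0.05. The model was tested on simulated data. Isoform ratios used an exact permutation test over libraries, adjusted over the 4 pairs tested. Lengths, positions and exon overlaps come from GENCODE vM21 (GRCm38), which held all 92 genes; 32 of them overlap exons of another gene, 26 of a protein-coding gene, and their values are uncertain without the strand setting. The name rule also took 4 processed pseudogenes, which were left out.

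The genes and lists were chosen with earlier results of these data known. Named genes were the isoforms and their partners, the 3 called genes of each complex with the largest change in each neighbouring comparison and a stage mean of at least 100, genes called lower, the gene of each complex with the highest mean, and up to 3 called genes of each other list with Ppargc1a, Esrra, Nrf1, Gabpa and Tfam. Ndufa7, Ndufb3, Ndufb11, Atp5d, Atp5s, Pprc1, Yy1 and the marker genes Mb, Mylpf, Actn3, Tnnt3, Myh4, Myoz1, Myh2, Eno3, Pvalb, Myh1, Myh7, Myh6, Myl7, Ucp1, Dpt, Col15a1, Pdgfra, Ptprc, Acta2, Abcc9, Cspg4, Myh11, Higd1b, Cd68, Cd79a and Itgam were added after their values were seen, and the TATA box was added to the motifs after a promoter was seen. One gene that this rule takes is not reported here. Alternatives were other pseudocounts (0.5 and 5), scalings and filters, no trend, a replicate block and leaving out libraries. R 4.3.3, limma 3.58.1, Python 3.11.15, pandas 2.3.3, numpy 2.4.6 and matplotlib 3.10.9 were used.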

Additional observations from a re-analysis of the deposited data

How the results depend on the processing

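The counts of genes called higher stayed within 1.5 times the values given under every alternative run. The count called lower in myotubes than in proliferating cells, 1, was 0 with a filter at 50 and 2 with only the 2 stages compared, and 2 with freshly isolated replicate 1 and proliferating replicate 1 left out together; leaving out 1 library gave 1 to 2. The count called lower in myotubes than in freshly isolated cells, 0, was 1 with a pseudocount of 5 and with quantile normalization, 2 with those 2 libraries left out together, and 0 to 2 when 1 library was left out, the 2 without freshly isolated replicate 1. Deviations of same-numbered libraries from their stage means correlated at -0.034 to 0.027, and those of differently numbered libraries at -0.058 to 0.059. No shared deviation was seen, but with 3 libraries per stage this cannot show whether same numbers stand for paired samples. A replicate block left the counts at 70 and 5, 82 and 1, and 85 and 0, but the ratio of Ndufa4l2 to Ndufa4 then had an exact p of 0.0556, where 0.0278 is the smallest the block allows. Upper quartile scaling moved the median of all genes from 0.07 to -0.16 for proliferating against freshly isolated cells, and quantile normalization from 0.04 to -0.10 for myotubes against proliferating cells, where the change of Atp5b became -0.07. Of 131 called changes of named genes, 127 kept their direction and call in every alternative, 3 lost the call in some and 1, that of Atp5b, changed sign. The 3 were Cox4i1 and Cox6b2 as given above and Ndufb2 in myotubes against freshly isolated cells (0.61), which was not called under upper quartile scaling or quantile normalization. Of the changes not called, 8 were called in some alternative: those of Ndufv3, Ndufa13, Ndufaf4 and Atp5sl given above, that of Ndufa4l2 in myotubes against freshly isolated cells without freshly isolated replicate 1, with a pseudocount of 5 and with quantile normalization, those of Ndufa4l2 and Ndufa6 on entry into culture with quantile normalization, and that of Atp5l on entry into culture without freshly isolated replicate 2. Leaving out 1 library moved 5 of them by more than 1.5-fold: Cox6a2 from proliferating cells to myotubes to 8.15 without proliferating replicate 1 and 9.38 without replicate 2, Cox6a2 from freshly isolated cells to myotubes to 7.56 without freshly isolated replicate 1 and 9.88 without replicate 3, Atp5k and Cox6b2 as given above, and Atp5k from freshly isolated cells to myotubes to 4.74 without freshly isolated replicate 1. Among other lists, assembly genes higher in myotubes than in proliferating cells numbered 27, and 21 to 36 over the alternatives. The count was 21 under quantile normalization, without proliferating replicate 3 and without myotubes replicate 3, and 36 with only the 2 stages compared. Genes of mitochondrial DNA upkeep higher in myotubes than in proliferating cells numbered 6, and 4 to 8 over the alternatives. Their count was 4 without myotubes replicate 3 and 8 with only the 2 stages compared. The count over all 17291 tested genes moved too, from 4951 with the settings used above. It was 4329 under quantile normalization, 4387 without proliferating replicate 3, 4164 without myotubes replicate 3 and 6098 with only the 2 stages compared. Depth limits the lowest genes, such as Cox4i2 and Ndufa4l2, since 1 read is worth up to 2.18 units.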
